A study of Mus musculus with 8 samples.

Results

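Genes of glycolysis, of lactate production and export, and of the pyruvate dehydrogenase complex and its kinases were followed in ovaries of pioglitazone- and vehicle-treated mice. Members were chosen by gene symbol, from a list of 34 genes, and each gene was represented by its brightest probe, the one with the highest mean over the 8 arrays. A probe naming a single gene was on the array for 29 of the 34 genes, out of 18069 genes so named in all, and 28 of the 29 could be tested. Hk3, Gpi1, Eno1 and Pfkfb1 had no named probe, and Aldoa lay only on a probe shared with other genes. The data came from 8 female lethal yellow (LY) mice, C57BL/6J mice of genotype Ay/a, whose dominant agouti allele is active in most tissues and is known to cause obesity and insulin resistance. Of these, 4 received pioglitazone by mouth every day from 120 to 180 days of age, and 4 received the same volume of the vehicle, dimethyl sulfoxide. All 8 animals therefore carried Ay, and the vehicle mice were obese mutants and not lean animals. Untreated black (BL) mice without Ay were not analysed here. The daily dose is given as 0.1 mg in the deposited description, whereas the study's text names a lower one. RNA of 1 ovary from each mouse was hybridized to its own CodeLink Whole Mouse Genome Bioarray, with no pooling. A whole ovary holds follicles, corpora lutea and stroma, so fewer cells of a type and less RNA per cell cannot be told apart.

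Pioglitazone is an agonist of PPARγ, a nuclear receptor best known for its role in fat cells. Glycolysis turns glucose into pyruvate, which lactate dehydrogenase reduces to lactate for export through monocarboxylate transporters, or which the pyruvate dehydrogenase complex converts into acetyl-CoA inside mitochondria. In the mouse ovary, granulosa and cumulus cells break down glucose and hand pyruvate to the oocyte, which uses little glucose itself. Many of the genes are known targets of hypoxia-inducible factors, whose binding sites hold the letters ACGTG or GCGTG.

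As a group the genes had estimates near 0. Values were compared on the log2 scale with limma, a moderated test fitted to all probes at once. No member passed the test after adjustment over all 30634 probes tested (limma, smallest adjusted p = 0.837), nor did any probe on the array (smallest adjusted p = 0.599). At unadjusted p under 0.05, 1 of 28 members differed, which is 3.57%, against 5.5% of all probes tested, so the members' share was not above the background. That member was Slc16a3, the monocarboxylate transporter MCT4, and it was lower in pioglitazone-treated mice, as were 3.53% of all probes. No member was higher at that threshold, beside 1.97% of all probes. Over the 28 genes the median log2 fold change, pioglitazone over vehicle, was -0.082, beside -0.034 over all probes, and single genes ranged from -0.52 to 0.63. Negative estimates were found for 19 genes, or 67.9%, beside 55.7% of all probes, and positive ones for 9. Leaving out pioglitazone mouse 1 raised the count of members at unadjusted p under 0.05 to 3, beside 7.98% of all probes. Added were Slc2a3 (log2 fold change 1.02) and Pfkm (0.49). Slc2a3 was under 0.2, the limit of sensitivity, on 5 of the 8 arrays and entered the test only through its treated mean. The mouse left out was its lowest treated mouse. Weighting arrays by their quality added Pfkm alone, beside 6.77% of all probes, and a comparison of 3 against 3 mice, without pioglitazone mouse 1 and vehicle mouse 3 and chosen after seeing the data, gave 4 members, beside 8.44% of all probes. Slc16a3 was among them each time.

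**Figure D1:**
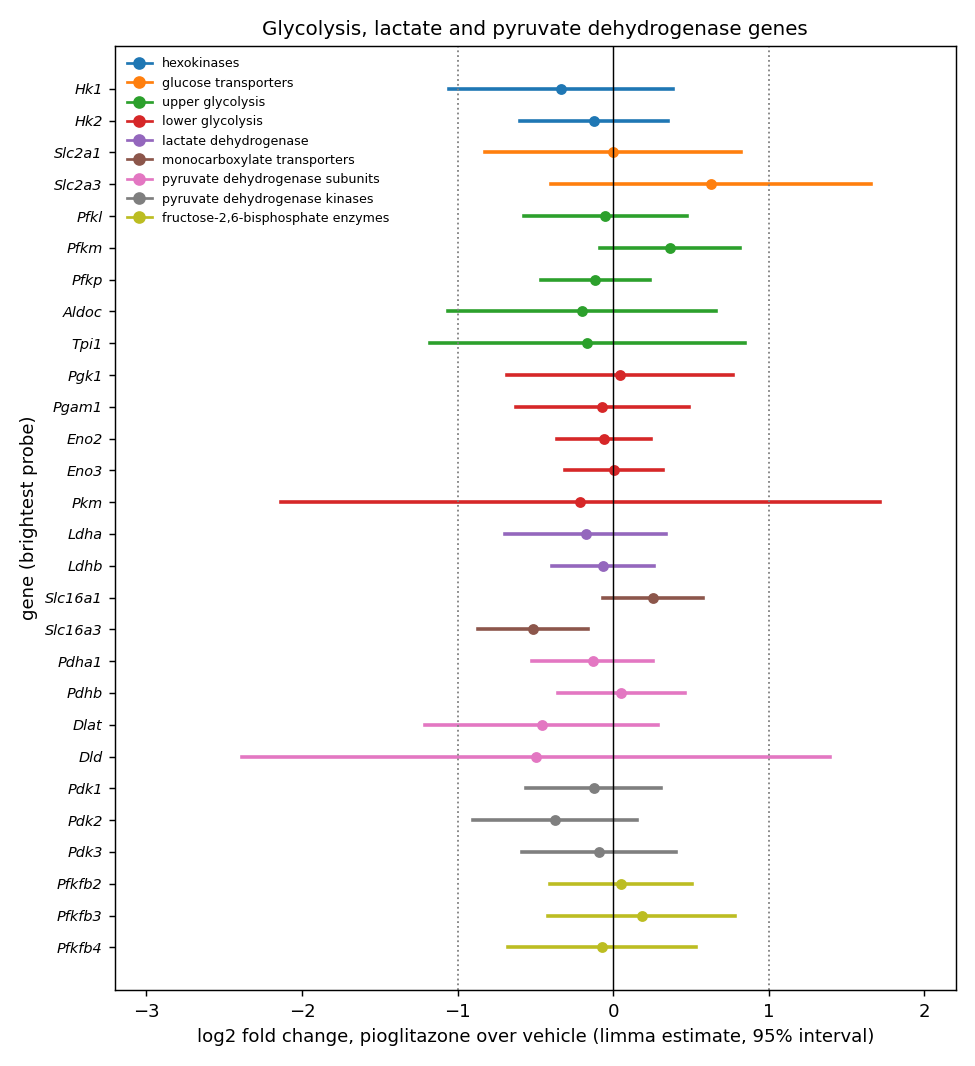
Log2 fold change, pioglitazone over vehicle, of the 28 tested genes (points, limma estimates from n = 4 mice per group) with 95% intervals (lines), coloured by role; dotted lines mark a 2-fold change. Only the interval of Slc16a3, from -0.87 to -0.16, leaves out 0, and the widest intervals belong to Pkm and Dld.

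How large a change could have been missed differed from gene to gene. The 95% interval of the limma estimate lay within 2-fold in either direction for 21 of the 28 genes and within 1.5-fold for 10. Estimates smaller than 0.25 on the log2 scale in either direction were seen for 20 genes. The intervals of Pkm, from -2.13 to 1.71, and of Dld, from -2.39 to 1.39, leave room for changes of more than 2-fold either way.

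Of the 28 genes 1, the lactate transporter gene Slc16a3, had groups that did not overlap, or 3.57%, beside 4.59% of all probes. The promoters of both monocarboxylate transporters and of Ldha are shown because they differ in where the core letters of hypoxia response elements lie. Each runs 5′ to 3′ over the 250 bases before the start in RefSeq (GRCm38.p6), with ACGTG and GCGTG on either strand in capitals. These are Slc16a3 at chr11:120948817-120949066, Slc16a1 at chr3:104638414-104638663 and 1 of the starts listed for Ldha at chr7:46845554-46845803, all on the plus strand.
Slc16a3: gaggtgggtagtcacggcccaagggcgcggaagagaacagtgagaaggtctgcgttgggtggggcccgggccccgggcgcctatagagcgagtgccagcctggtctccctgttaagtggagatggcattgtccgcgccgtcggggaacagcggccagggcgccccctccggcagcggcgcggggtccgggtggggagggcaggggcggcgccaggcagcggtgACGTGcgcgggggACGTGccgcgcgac
Slc16a1: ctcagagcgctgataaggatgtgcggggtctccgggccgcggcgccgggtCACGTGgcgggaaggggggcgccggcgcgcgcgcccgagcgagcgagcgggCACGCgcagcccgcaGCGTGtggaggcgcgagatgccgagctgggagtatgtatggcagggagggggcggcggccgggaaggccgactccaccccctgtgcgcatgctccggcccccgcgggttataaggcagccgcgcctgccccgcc
Ldha: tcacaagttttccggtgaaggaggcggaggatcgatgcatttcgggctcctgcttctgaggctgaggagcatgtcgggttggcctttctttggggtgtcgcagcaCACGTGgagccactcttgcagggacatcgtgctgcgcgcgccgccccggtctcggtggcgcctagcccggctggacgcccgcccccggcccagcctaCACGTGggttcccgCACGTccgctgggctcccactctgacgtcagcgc

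In Slc16a3 the 2 matches to ACGTG began 27 and 14 bases before the start, whereas in Slc16a1 the matches lay between 200 and 134 bases before it. In the Ldha window they began 145, 144, 48, 47 and 34 bases before it. A place near the start was not particular to Slc16a3. Matches to ACGTG also began 22 and 21 bases before a start of Pfkfb2 and 36 before that of Slc2a1. Both Slc16a1 and Ldha held the palindrome CACGTG, the E-box, which contains ACGTG on each strand, and Slc16a3 did not.

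Slc16a3, which exports lactate from cells that rely on glycolysis, measured 3.32, 3.07, 2.53 and 2.69 relative intensity units, in which the median probe of an array is 1, in pioglitazone-treated mice 1 to 4, against 4.39, 3.77, 4.88 and 3.62 in vehicle-treated mice 1 to 4. Every treated mouse lay below every vehicle mouse, a separation no more frequent among the members than among all probes. The means were 2.91 ± 0.358 with pioglitazone and 4.17 ± 0.578 with vehicle (SD, n = 4 each). On the log2 scale the fold change was -0.52 ± 0.16 (SE), with p = 0.00884 and adjusted p = 0.837 by limma and p = 0.0286 by a 2-sided exact permutation test. No split of 8 mice into groups of 4 can give a lower permutation p. The second probe for the gene read 1.65, 2.08, 1.91 and 1.48 with pioglitazone, against 1.82, 2.71, 3.46 and 1.51 with vehicle. It also averaged lower in treated mice, by a log2 fold change of -0.35 ± 0.26, but the groups overlapped (limma, p = 0.208, exact permutation p = 0.314).

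Slc16a1, the transporter MCT1 that can carry lactate and pyruvate in either direction, had an estimate of the opposite sign. It measured 0.693, 0.759, 0.771 and 0.661 in pioglitazone-treated mice, against 0.519, 0.638, 0.575 and 0.693 in vehicle-treated mice. Only vehicle mouse 4 reached into the treated range. The log2 fold change was 0.26 ± 0.14 (SE, limma, p = 0.105, exact permutation p = 0.0571), which did not pass the test.

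Lactate dehydrogenase joins 2 subunits, the A form made by Ldha, abundant in glycolytic tissue, and the B form made by Ldhb, abundant in oxidative tissue. Ldha measured 45.4, 50.3, 52.2 and 44.5 with pioglitazone, against 48.9, 89.4, 45.6 and 43.5 with vehicle. Apart from vehicle mouse 2 all mice lay between 43.5 and 52.2, and the log2 fold change of -0.18 ± 0.23 (limma, p = 0.461, exact permutation p = 0.83) became 0.063 without that mouse. The other Ldha probe was under 0.2 on all 8 arrays and was not tested. For Ldhb the range was 42.9 to 57.1 in treated and 48.5 to 59.4 in vehicle mice, with a log2 fold change of -0.065 and a 95% interval from -0.39 to 0.27.

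**Figure D2:**
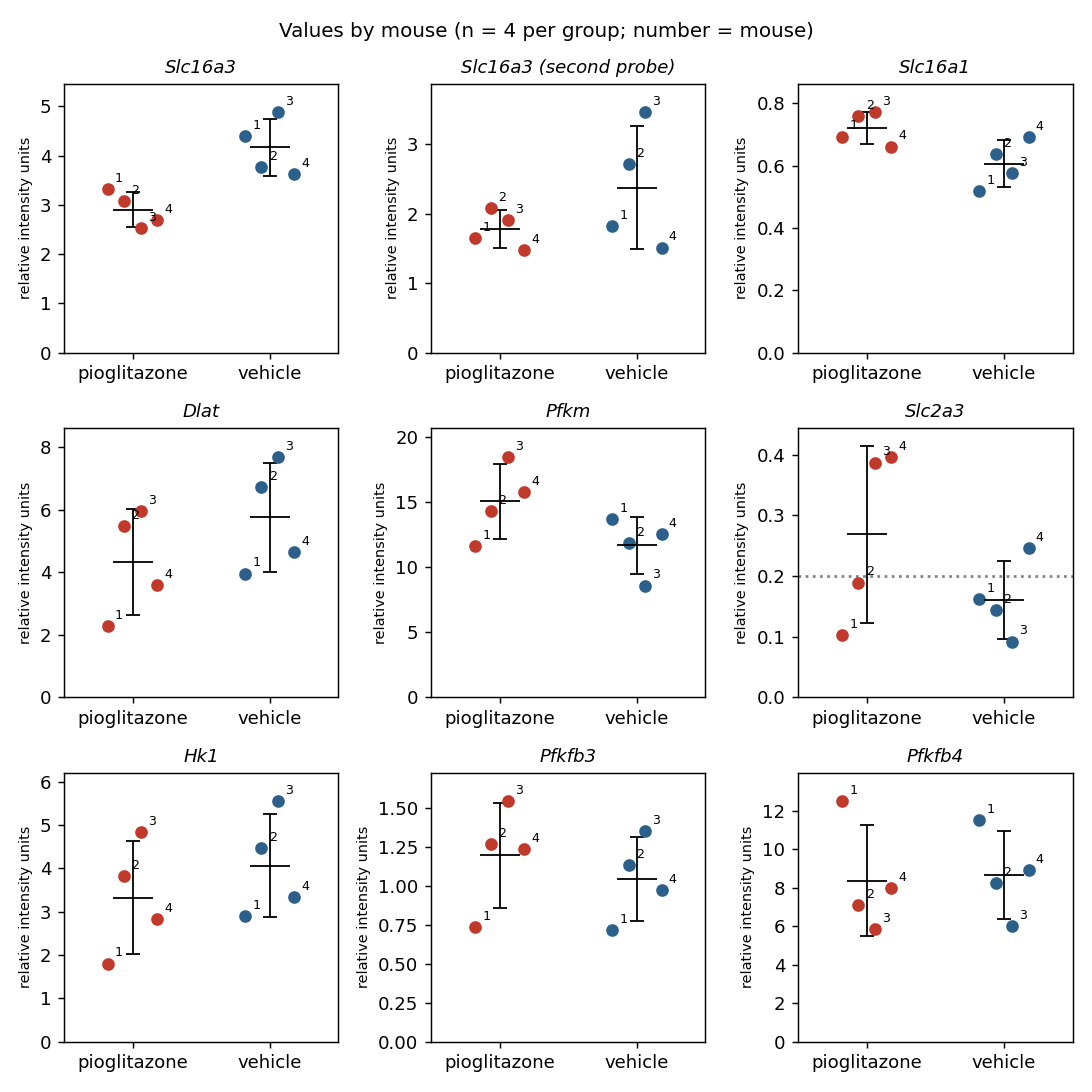
Relative intensity of 8 genes, with the 2 probes of Slc16a3 in separate panels, in each mouse (points, numbered by mouse), with the group mean and SD (n = 4 per group); the dotted line for Slc2a3 is the limit of sensitivity, 0.2. The brighter Slc16a3 probe separates the groups, while for Hk1, Dlat, Pfkfb3 and Pfkfb4 the mice of either group fall in the same order.

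Glucose enters the pathway through transporters and is trapped by hexokinases. Neither Slc2a1, the transporter GLUT1 of most cells, nor Slc2a3, the high-affinity transporter GLUT3, passed the test. Slc2a1 had nearly equal means in treated and vehicle mice (4.12 ± 1.73 and 4.17 ± 1.66, SD, n = 4 each; log2 fold change 0.00 ± 0.37), yet it spanned 2.65 to 6.60 among treated and 2.07 to 5.98 among vehicle mice. Slc2a3 was dim, with 0.103, 0.189, 0.387 and 0.396 in pioglitazone-treated mice, against 0.162, 0.144, 0.091 and 0.246 in vehicle-treated mice. It was under the limit of sensitivity of 0.2 on 5 of the 8 arrays and entered the test only through the treated mean, so its log2 fold change of 0.63 ± 0.46 (limma, p = 0.203, exact permutation p = 0.286), the highest of the 28, rests on values near background. Hk1, the hexokinase found in most tissues, measured 1.80, 3.83, 4.84 and 2.83 with pioglitazone, against 2.90, 4.46, 5.54 and 3.34 with vehicle. Each treated mouse was below the vehicle mouse of the same number, a different animal, and the titles do not say what the number marks. The groups overlapped widely, and the log2 fold change of -0.34 ± 0.32 did not pass the test (limma, p = 0.321, exact permutation p = 0.429). Hk2, the insulin-responsive hexokinase, had a log2 fold change of -0.12.

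The enzymes that commit and split the sugar gave 1 positive and 4 negative estimates, a tally that turned to 4 positive and 1 negative, Pfkp, with weighted arrays or with 3 against 3 mice. Pfkm, the muscle form of phosphofructokinase, measured 11.6, 14.3, 18.5 and 15.8 in pioglitazone-treated mice, against 13.7, 11.9, 8.59 and 12.5 in vehicle-treated mice. The groups overlapped at the low end of the treated mice, and the log2 fold change was 0.37 ± 0.20 (limma, p = 0.0976, exact permutation p = 0.143). The liver and platelet forms, Pfkl and Pfkp, had log2 fold changes of -0.049 and -0.12. Aldoc, an aldolase, and Tpi1, the triose phosphate isomerase, had estimates of -0.20 and -0.17, both with pioglitazone mouse 1 far below the rest. Tpi1 is a gene whose probes disagreed. Its brighter probe read 1.29, 3.92, 4.75 and 6.16 with pioglitazone, against 2.76, 5.73, 3.76 and 3.93 with vehicle, while the other read 1.77, 1.26, 1.25 and 1.24 with pioglitazone, against 1.63, 1.32 and 1.81 in vehicle mice 1 to 3, with no value for vehicle mouse 4. The treated mouse that was lowest on the first probe was thus the highest treated mouse on the other, and neither probe passed the test.

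The later steps of the pathway had estimates near 0. The 5 tested genes, Pgk1, Pgam1, Eno2, Eno3 and Pkm, had a median log2 fold change of -0.057 and ranged from -0.21 to 0.042. Eno2, the enolase known from neurons, was the steadiest of all members, with 0.789, 0.843, 0.709 and 0.708 in treated mice, against 0.765, 0.785, 0.887 and 0.736 in vehicle mice. Its interval, from -0.36 to 0.24, lay inside 1.5-fold (limma, p = 0.678, exact permutation p = 0.486). Eno3, the muscle enolase, was nearly as steady, at 7.18 ± 0.805 with pioglitazone and 7.14 ± 0.576 with vehicle (SD, n = 4 each). Pkm, which encodes the pyruvate kinase of most tissues, was the opposite case. It measured 0.145, 0.480, 1.52 and 0.115 in treated mice, against 0.149, 1.01, 0.566 and 0.257 in vehicle mice, a 13.2-fold range among treated and a 6.76-fold range among vehicle mice, and it lay under 0.2 on 3 arrays. Pgam2, the muscle form of phosphoglycerate mutase, was at or above 0.2 in pioglitazone mouse 1 alone and was not tested.

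The pyruvate dehydrogenase complex has an E1 part made by Pdha1 and Pdhb, an E2 core made by Dlat, and an E3 part made by Dld, which other dehydrogenase complexes share. None of the 4 passed the test in the unpaired comparison. Dlat measured 2.28, 5.47, 5.96 and 3.57 in pioglitazone-treated mice, against 3.95, 6.72, 7.68 and 4.65 in vehicle-treated mice. The groups overlapped, but in each of the 4 same-numbered pairs the treated mouse was lower, and the mice of either group stood in the order 3, 2, 4 and 1 from high to low. Its log2 fold change of -0.46 had an SE of 0.33 unpaired (limma, p = 0.20, exact permutation p = 0.314) and of 0.15 with the mouse number taken as a block (limma, p = 0.0169, adjusted p = 0.575). With that block 2 of the 28 members were at unadjusted p under 0.05, Slc16a3 and Dlat, beside 8.6% of all probes. Dld varied most among the subunits, with 0.288, 2.97, 5.18 and 1.13 in treated mice, against 0.770, 3.08, 3.04 and 2.75 in vehicle mice, an 18.0-fold range among treated mice. The E1 genes were tighter. Pdha1 averaged 2.11 ± 0.117 with pioglitazone and 2.35 ± 0.557 with vehicle, and Pdhb 14.4 ± 0.978 with pioglitazone and 14.2 ± 2.98 with vehicle (SD, n = 4 each), with log2 fold changes of -0.13 and 0.052.

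The kinases that switch the complex off by phosphorylation all had negative estimates, of which none passed the test. Pdk2, the widely expressed kinase, measured 3.59, 4.30, 4.89 and 2.96 with pioglitazone, against 5.94, 4.03, 6.72 and 3.89 with vehicle. The treated mice lay toward the low end of the vehicle range or beneath it, with 2 vehicle mice above all of them, and the log2 fold change was -0.37 ± 0.23 (limma, p = 0.146, exact permutation p = 0.20). For Pdk1, a known hypoxia-inducible kinase, and Pdk3 the estimates were -0.13 and -0.094.

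The bifunctional enzymes that make and break down fructose-2,6-bisphosphate, an activator of phosphofructokinase, gave small estimates. Pfkfb3, the form with the strongest kinase activity, measured 0.733, 1.27, 1.54 and 1.24 in pioglitazone-treated mice, against 0.717, 1.13, 1.35 and 0.970 in vehicle-treated mice. It was higher in the treated mouse of every same-numbered pair, by a log2 fold change of 0.18 ± 0.27 (limma, p = 0.508, exact permutation p = 0.543). Pfkfb4 measured 12.5, 7.10, 5.84 and 7.99 with pioglitazone, against 11.5, 8.22, 5.98 and 8.91 with vehicle, and stood in the order 1, 4, 2 and 3 in either group, the reverse of the order of Pfkfb3. Pfkfb2 had a log2 fold change of 0.050, while its other 2 probes gave -0.34 and -0.65, none of them past the test. The probe at -0.65 was under 0.2 on 5 of the 8 arrays, with means of 0.141 with pioglitazone and 0.219 with vehicle. It entered the test only through its vehicle mean, so its estimate rests on values near background.

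Over all members, 4 genes, or 14.3%, had the same direction in every same-numbered pair, Hk1, Slc16a3 and Dlat lower and Pfkfb3 higher, beside 20.4% of all probes that did so in either direction. The order of the mice was identical in the 2 groups for Hk1, Dlat, Pfkfb3 and Pfkfb4, 14.3% of members and 8.99% of all probes. The mouse numbered 1, a different animal in each group, was lowest in both groups for 5 members, Hk1, Tpi1, Dlat, Dld and Pfkfb3. These are 17.9% of members, beside 8.42% of all probes. The mouse so numbered was highest in both for 3, Slc2a1, Pgam1 and Pfkfb4, 10.7% beside 23.0%.

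**Figure D3:**
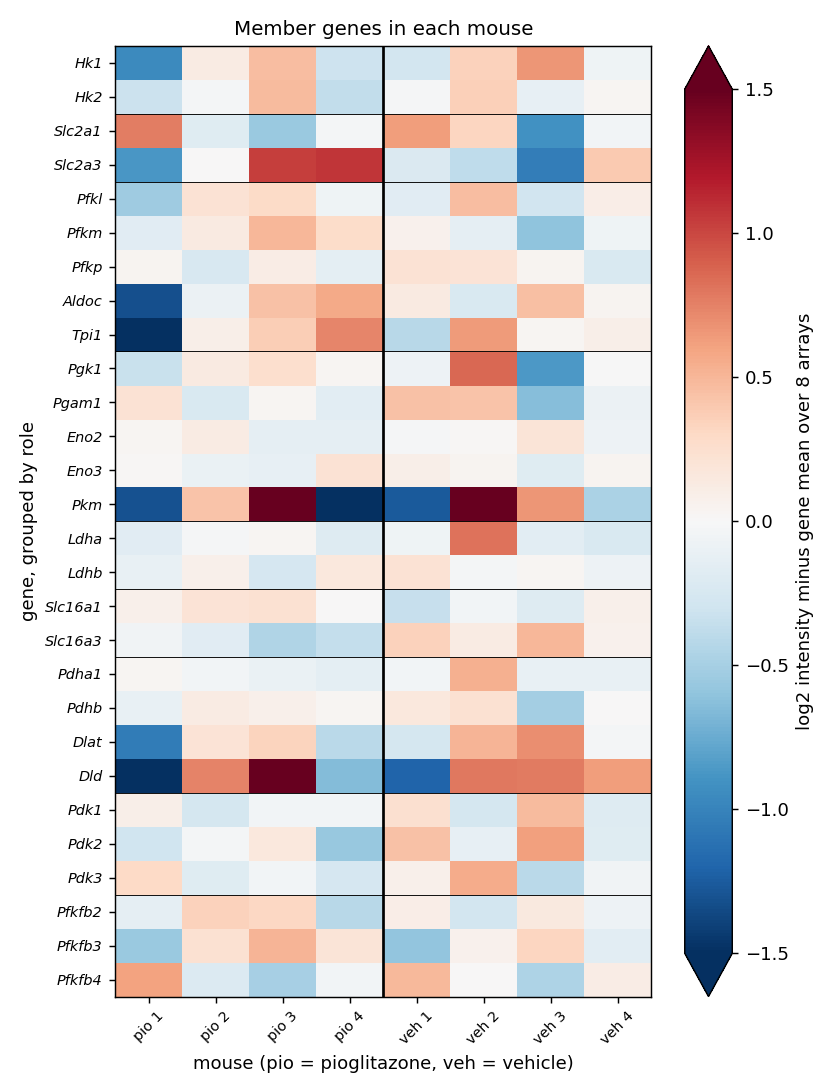
Log2 intensity of each of the 28 tested genes in each mouse, minus the gene's mean over the 8 arrays (colour, cut at 1.5 either way), pioglitazone mice on the left and vehicle mice on the right, with lines between roles. Pkm, Dld, Tpi1 and Aldoc are dark blue in pioglitazone mouse 1, and many genes are red in pioglitazone mouse 3 and vehicle mouse 2.

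Mice of a group differed widely, as they did over the whole array. For 27 of the 28, all but Slc16a3, the range within at least 1 group was wider than the difference between group means on the log2 scale, which is 96.4% beside 98.6% of all probes. The SD between mice of a group had a median of 0.353 over the members, beside 0.288 over all probes, and it was above the median of all probes for 18 genes. It ranged from 0.12 for Eno2 to 1.49 for Pkm, and 6 genes, Slc2a1, Slc2a3, Aldoc, Tpi1, Pkm and Dld, were above the 90th percentile of all probes, 0.601. Dim probes are among them, since Slc2a3 and Pkm fell under 0.2 on some arrays, but Slc2a1 and the brighter probe of Tpi1 did not.

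**Figure D4:**
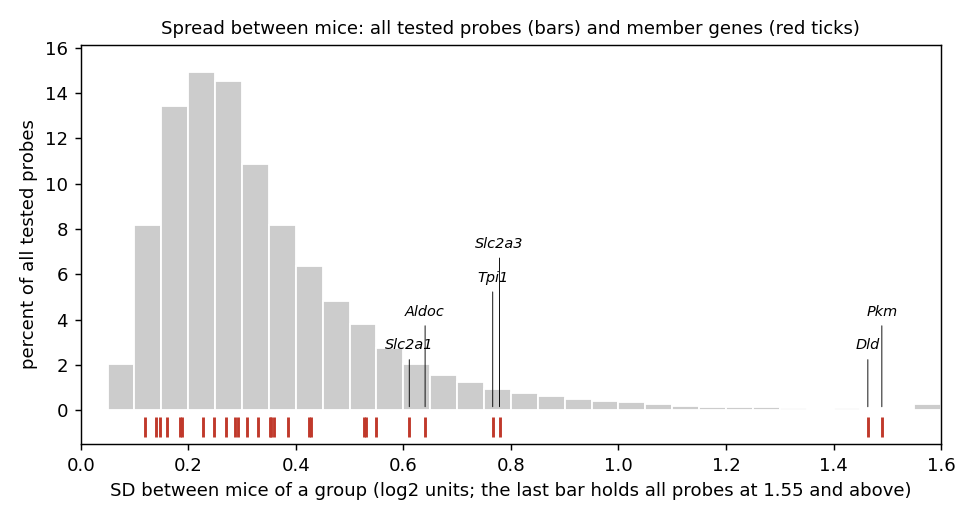
Distribution over all 30634 tested probes of the SD between mice of a group on the log2 scale (grey bars, percent of probes per bin) with each of the 28 member genes as a red tick below. The 6 named genes lie above 0.601, the 90th percentile of all probes, and Pkm and Dld stand furthest to the right.

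The mice in which members were lowest or highest were counted beside the same counts over all probes. Pioglitazone mouse 1 was the lowest treated mouse for 11 of the 28 genes, or 39.3%, beside 19.2% of all probes, and the highest for 7, or 25%, beside 49.2%. Pioglitazone mouse 3 was the highest for 13, or 46.4%, beside 20.4%. Among vehicle mice, mouse 2 was the highest for 10, or 35.7%, beside 18.7%, and mouse 3 the lowest for 11, or 39.3%, beside 32.1%. After each gene was centred on its mean over the 8 arrays, the median over the members was -0.15, 0.043, 0.19 and -0.099 on the log2 scale in pioglitazone mice 1 to 4, against 0.025, 0.22, -0.043 and -0.042 in vehicle mice. The same median over 8 tested luteal cell markers was -1.13, -0.016, 0.65 and -0.59 with pioglitazone, against -0.10, 0.87, 0.63 and -0.28 with vehicle. Pioglitazone mice 1 and 4 were thus the lowest and vehicle mouse 2 the highest by either measure, while vehicle mouse 3 was high for the luteal markers alone. The other lists differed in their order among treated mice. Those of other glycolysis and pyruvate dehydrogenase genes, glycogen genes, hypoxia-inducible genes and endothelial markers also had treated mice 2 and 3 above mice 1 and 4. Over the other glycolysis and pyruvate dehydrogenase genes the median was -0.035, 0.021, 0.087 and -0.14 in pioglitazone mice, against -0.033, 0.11, 0.033 and 0.046 in vehicle mice. Over endothelial markers it was -0.51, 0.15, 0.14 and -0.17, against 0.32, 0.22, -0.24 and 0.063. The median was -0.24, 0.11, 0.25 and -0.21 over glycogen genes in pioglitazone mice, against -0.15, 0.29, 0.31 and -0.027 in vehicle mice. Over hypoxia-inducible genes it was -0.13, 0.081, 0.18 and -0.18 in pioglitazone mice, against 0.015, 0.075, -0.12 and -0.053 in vehicle mice. In contrast, gluconeogenesis genes were highest in mouse 1 and lowest in mouse 3, at 0.35, -0.14, -0.25 and 0.30 in pioglitazone mice 1 to 4. So were oocyte markers, at 0.27, 0.018, -0.21 and -0.013. Pentose phosphate genes, at 0.066, -0.34, -0.012 and -0.31, did not follow the members' order either. The part of luteal tissue in these values was not tested.

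Marker lists of the ovary and of tissue around it were read in the same way. The summed level of 8 luteal markers was 367 to 537 with pioglitazone and 442 to 623 with vehicle, and their median log2 fold change was -0.54 with none at unadjusted p under 0.05. At that threshold, which 1.97% of all probes passed as higher and 3.53% as lower, 1 of 9 tested granulosa cell markers was higher and none lower, with a median of 0.30 and sums of 100.2 to 177 in treated and 91.1 to 119 in vehicle mice, and Inhbb was under 0.2 on every array. Of 10 oocyte markers 1 was lower, of 9 for theca and stroma none differed, and of 5 for endothelium 1 was lower, with Cdh5 and Flt1 under 0.2 on every array. None of 7 macrophage markers differed, with sums of 68.0 to 99.0 in treated and 82.8 to 119 in vehicle mice, and none of 3 for red blood cells. Adipocyte markers summed to 125, 29.2, 35.7 and 15.4 in pioglitazone mice 1 to 4, against 29.1, 66.9, 37.4 and 26.2 in vehicle mice, so that pioglitazone mouse 1, the lowest treated mouse for 11 members and the highest for 7, held the most fat marker signal. For skeletal muscle 2 of 9 tested markers were higher, with Myh1 under 0.2 on every array. Of these, Trdn averaged 0.479 with pioglitazone and 0.135 with vehicle and entered the test only through its treated mean. Last, for oviduct and epithelium 1 of 7 was lower. Their part in the members' values was not tested.

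Other genes of carbohydrate metabolism were read beside the shares of all probes. At unadjusted p under 0.05 by limma, 1.97% of all probes were higher and 3.53% lower, and 4.59% had groups that did not overlap. Of 18 other tested genes of glycolysis, glucose and lactate transport and pyruvate dehydrogenase control, 1 was lower at unadjusted p under 0.05 and none higher, with a median log2 fold change of -0.077. This was Gapdh, the glyceraldehyde phosphate dehydrogenase often taken as a reference gene, whose brighter probe measured 0.690, 0.702, 0.672 and 0.460 in pioglitazone-treated mice, against 0.826, 0.783, 1.09 and 0.766 in vehicle-treated mice. The groups did not overlap, with a log2 fold change of -0.46 ± 0.19 (limma, p = 0.0364, adjusted p = 0.837, exact permutation p = 0.0286), but the other Gapdh probe, at 0.2 or more on 4 arrays, gave 0.32 ± 0.23 (limma, p = 0.208, exact permutation p = 0.286). Over the 8 arrays the brighter Gapdh probe averaged 0.749 and the other 0.204, both below the median probe of an array. How well either reports the Gapdh transcript was not tested. Among 12 genes of glycogen metabolism 1 was lower. Phka1, a regulatory subunit of phosphorylase kinase, measured 11.1, 11.99, 10.9 and 9.61 in treated mice, against 14.9, 13.3, 16.8 and 12.4 in vehicle mice, without overlap (log2 fold change -0.39 ± 0.15, limma, p = 0.0262, exact permutation p = 0.0286). Its other probe gave 0.19 ± 0.43, with vehicle mouse 4 missing. None of 8 genes of gluconeogenesis, 6 of the pentose phosphate pathway, 15 of the citric acid cycle and 13 hypoxia-inducible genes outside the pathway was at unadjusted p under 0.05, and their median log2 fold changes were 0.016, -0.24, -0.16 and -0.0041.

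Promoters were compared for a feature that the choice of genes had not used. RefSeq promoters were found for 33 of the 34 listed genes, 52 promoters in all since some genes have several starts. ACGTG was present on either strand in 20 of these, 38.5%, beside 16.6% of 32851 promoters, and GCGTG in 25, 48.1%, beside 28.2%. The E-box CACGTG, which always holds ACGTG, was present in 6, 11.5%, beside 6.02%. Some windows of a gene overlap, as in Aldoa, Eno1 and Pfkm, so that 1 site can count more than once. Counted by gene, ACGTG was in 16 of the 33 genes, GCGTG in 20 and CACGTG in 6. Shares by gene were not counted for all promoters. The direct repeat of AGGTCA with 1 base between its copies is the element bound by PPAR with its partner RXR. Searched for as an exact match, it was found in none of the members' windows and in 11 of all promoters, 0.0335%. At so low a share its absence from 52 windows says nothing about the members. The members' windows were also richer in G and C, with a median of 59.8% beside 52.4%, and the part of base composition in these shares was not tested. Letters that match a motif are a description of sequence, and whether any factor bound there was not measured.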

How the data were processed

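Ovarian RNA of 8 LY mice was measured on 1-colour arrays, 4 with pioglitazone and 4 with vehicle. The deposited values are linear intensity values, called relative intensity units here, which the authors made with CodeLink background correction and by dividing each slide by its median in GeneSpring. The medians of the 8 arrays were 1.007 to 1.014 as deposited, and the values show no sign of a further division by the median of a gene. Each of 36227 probes was read on every array, with 47 to 211 missing spots, and 82.5% to 83.9% of probes were at or above 0.2, the limit of sensitivity that the study used. Correlations between arrays ran from 0.949 to 0.987.

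Symbols came from the platform annotation, updated through RefSeq, and 21615 probes named 1 gene and 681 several. Arrays were divided by their median again, values under 0.05 were set to 0.05, and log2 values were compared by the lmFit and eBayes steps of limma 3.58.1 under R 4.3.3. A probe was tested where either group had a mean of 0.2 or more and both had 3 values or more, and p-values were adjusted by Benjamini-Hochberg over 30634 probes. For single genes all 70 ways of assigning mice were also enumerated in an exact permutation test, 2-sided. No depth applies to arrays, and 4 mice per group limit the precision. The fit was tested on simulated data.

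The members and lists were chosen with earlier results of these data known. Per-mouse values are given for members at unadjusted p under 0.05 and for the member of each role with the smallest p. Other members with values by mouse (Slc16a1, Tpi1, Pkm, Dld and Pfkfb4) were chosen after their values were seen.

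The titles number the mice 1 to 4 in either group but do not say what the number marks. After removal of group means, arrays of the same number correlated at 0.515, 0.181, 0.274 and 0.232, all above 0.1, so the number was also used as a block. The block was thus chosen from the same data that it was fitted to. Some arrays of unlike number also correlated above 0.1. Vehicle mouse 2 correlated best with pioglitazone mouse 3 (0.369), vehicle mouse 1 reached 0.157 with pioglitazone mouse 4, and vehicle mouse 4 reached 0.110 with pioglitazone mouse 2. Alternatives covered the floor, the filters, the normalization, array weights, the methods' t-test, the choice of probe and each array left out.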

Additional observations from a re-analysis of the deposited data

Results flagged for a closer look

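Of 58 groups of 4 mice examined, 3 held a mouse far from the others, close to the 1 in 20 that chance gives. Ldha, lactate dehydrogenase A, measured 89.4 in vehicle mouse 2, against 48.9, 45.6 and 43.5 in the other vehicle mice. Pdha1, a pyruvate dehydrogenase E1 subunit, measured 3.18 in the same mouse, against 2.14, 2.04 and 2.04. Dld, the E3 subunit, measured 0.770 in vehicle mouse 1, against 3.08, 3.04 and 2.75.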

How the results depend on the processing

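Slc16a3, read by its brighter probe or the mean of its probes, was lower at unadjusted p under 0.05 under every alternative, though its second probe alone was not (p = 0.208 by limma, exact permutation p = 0.314), and no member or probe passed after adjustment under any. Its log2 fold change ran from -0.58 to -0.44 with each mouse left out. The count of members at unadjusted p under 0.05 was 2 with array weights (Pfkm 0.35 added; 6.77% of all probes) and also 2 when the replicate number was a block (Dlat -0.46 added), which changed no other member's call. Leaving out each mouse gave counts of 1 to 3. The highest count came without pioglitazone mouse 1, beside 7.98% of all probes (Slc2a3 1.02, under 0.2 on 5 of the 8 arrays, and Pfkm 0.49 added). With 3 against 3 mice, without pioglitazone mouse 1 and vehicle mouse 3, a choice made after seeing the data, it was 4 (Slc2a1 -0.56, Pfkfb3 0.54 and Pfkfb4 -0.45 added; 8.44% of all probes). Over all probes it ran from 740 without pioglitazone mouse 4 to 2635 with the block. The members' median log2 fold change ran from -0.16 to 0.019 with each mouse left out and was above 0 only without vehicle mouse 2.

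Estimates of many members changed sign, among them those of Dld and Hk1, which were -0.50 and -0.34 with all mice. With quantile normalization Pfkl was 0.046, Pgam1 0.17 and Ldhb 0.052. With cyclic loess Pfkl was 0.027, Pgam1 0.055, Ldhb 0.051 and Pfkfb4 0.013. With array weights Hk1 was 0.0025, Slc2a1 -0.32, Pfkl 0.0069, Aldoc 0.094, Tpi1 0.054, Pgk1 -0.026, Eno3 -0.064, Pkm 0.45 and Dld 0.12. With 3 against 3 mice Hk1 was 0.093, Slc2a1 -0.56, Pfkl 0.016, Aldoc 0.32, Tpi1 0.29, Pgk1 -0.12, Eno3 -0.058, Pkm 0.37, Pdhb -0.062 and Dld 0.47. With the mean over all probes of a gene Pfkfb2 was -0.31, a value that includes its dimmest probe, near background. With each mouse left out the log2 fold change ran from -0.30 to 0.21 for Slc2a1, -0.15 to 0.12 for Pfkl, -0.42 to 0.21 for Aldoc, -0.44 to 0.31 for Tpi1, -0.24 to 0.34 for Pgk1, -0.29 to 0.064 for Pgam1, -0.067 to 0.047 for Eno3, -0.94 to 0.30 for Pkm, -0.28 to 0.063 for Ldha, -0.13 to 0.0098 for Ldhb, -0.19 to 0.023 for Pdha1, -0.11 to 0.14 for Pdhb, -1.09 to 0.30 for Dld, -0.24 to 0.011 for Pdk1, -0.24 to 0.077 for Pdk3, -0.057 to 0.20 for Pfkfb2 and -0.28 to 0.081 for Pfkfb4. The cause of these changes was not tested. Signal near the limit of 0.2 bounds what can be read for Slc2a3 and Pkm.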
